A study of Rattus norvegicus with 8 samples.

Results

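The solute carriers are membrane transporters whose gene symbols carry the prefix Slc and a family number. Members were all probe sets with 1 annotated gene symbol made of Slc and a number, without the Slc25 family of mitochondrial carriers. This gave 339 of 31142 probe sets on the 2 chips, 248 of 15866 on the A chip and 91 of 15276 on the B chip, for 253 genes. The arrays carry total RNA of PC12 cells, an established rat pheochromocytoma line that serves as a model of chromaffin cells. Forskolin activates adenylyl cyclase and so raises cyclic AMP. Each chip was used for 2 arrays of cells with forskolin (spelled foreskolin in the sample labels) and 2 arrays of cells without it, numbered replicate 1 and replicate 2. The series title calls the control inactive. The labels used here give no dose, exposure time or passage. Nothing in them says that the replicates were separate cultures, so each p-value rests on a spread between arrays that may be technical only.

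Solute carriers move amino acids, sugars, ions, metals, nucleosides, neurotransmitters and vitamins across the plasma membrane or the membranes of organelles. Some exchange one solute for another and some couple uptake to the sodium or proton gradient set by ATP-driven pumps. In chromaffin cells, vesicular monoamine transporters load catecholamines into granules and the noradrenaline transporter takes released amine back up. Cyclic AMP acts mainly through protein kinase A and the CREB family of transcription factors, which bind the cyclic AMP response element of target genes.

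Values are the authors' processed log2 levels, and a difference is always forskolin minus no forskolin on the same chip. A probe set was tested where its mean linear value over the 4 arrays lay at or above the 30th percentile of its chip, which corresponds to a level of 7.02 (log2) on the A chip and 6.02 on the B chip. No detection calls were used here, so how far a level lies above background is unknown, and levels of different probe sets are not set against each other. A difference is called where limma's p, adjusted across every tested probe set on its chip, is under 0.05. The 95% interval of a member's difference extended by a median of ±0.10 on the A chip and ±0.20 on the B chip (log2, n = 2 arrays per group). Of the chromaffin marker genes used to check the cell type, 8 of the 9 on the chips were tested, among them Th. Their 10 tested probe sets, all on the A chip, had a median difference of 0.12 (log2). Counting unadjusted p-values under 0.05, 6 were higher and 0 lower, among them Th (0.11), Chga (0.12) and Chgb (0.15). Of all tested probe sets on the A chip, 7.1% were higher and 10.3% lower at that cutoff, and limma called 2.03% higher. Called higher were Phox2a (0.41) and 1 of 2 probe sets of Hand2 (0.28), while the brighter probe set of Hand2 was not (0.16, adjusted p = 0.0876). The part of these shifts in the results on carriers was not tested. The probe set of Dbh, the enzyme that makes noradrenaline, lay under the filter at 6.70 and 6.68 without forskolin and 6.85 and 6.90 with it (log2). Of the marker genes of fibroblasts, glia, adrenal cortex and of blood and endothelium, 3 each were tested and limma called none. An unadjusted p under 0.05 was found for 1 probe set, of Col1a1 (0.14), whose other probe set measured 0.05 with overlapping arrays. The fibroblast collagen gene Col3a1 read 11.81 and 11.83 without forskolin and 11.83 and 11.84 with it. The fibroblast gene Dcn was also tested (-0.02), while Lum, Pdgfra and both probe sets of Col1a2 lay under the filter.

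Limma called few solute carriers, and a member that was not called may still have changed. Slc20a1 and Slc30a1 rose, Slc31a2 and Slc35f5 fell, and no other member was called. In RNA of a whole culture, less RNA per cell and fewer cells of a kind cannot be told apart. These are 4 of 162 tested member probe sets on the A chip, or 2.47%, where 3.3% of all 11106 tested probe sets were called (2.03% higher and 1.26% lower). On the B chip limma called none of 68 tested members against 0.159% of all tested probe sets (0.15% higher and 0.00935% lower), and eBayes without a trend also called none. Counting unadjusted p-values under 0.05 gave 0 higher and 2 lower members there, beside 1.64% and 3.33% of all probe sets, and 15 higher and 11 lower on the A chip, beside 7.1% and 10.3%. The share of members called on the A chip is near that of all probe sets. Counted as genes through the brightest tested probe set, 2 of 181 tested members rose, 2 fell and 177 were not called, beside 1.44% higher and 0.945% lower among all genes. The median difference of the members was 0.01 on the A chip and -0.02 on the B chip (log2), and that of all tested probe sets was -0.01 and -0.03. The B chip median of the members was above 0 at 0.0040 under quantile normalization and 0.0025 with median centring. That of all tested probe sets on the B chip also moved up, to 0.0004 and -0.0045. The forskolin arrays and the control arrays did not overlap in 93 of the 162 tested members on the A chip, or 57.4%, beside 48.5% of all tested probe sets. The same count on the B chip was 24 of 68, or 35.3%, beside 32.7%.

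**Figure D1:**
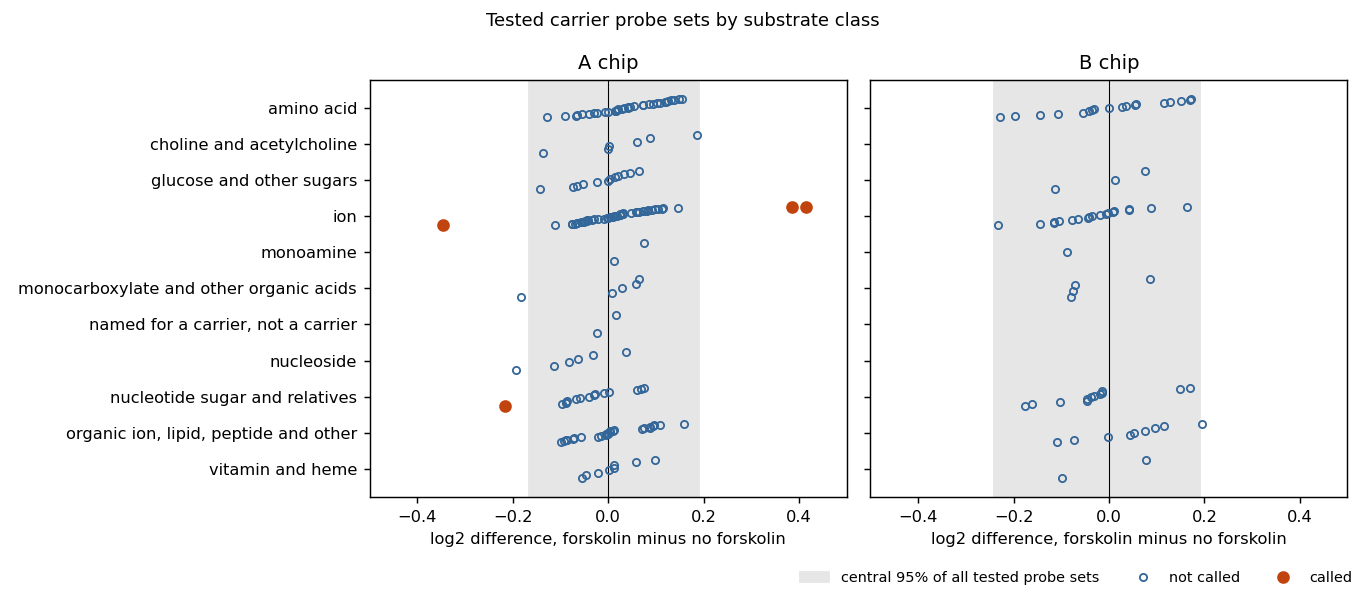
Log2 difference (forskolin minus no forskolin) of every tested solute carrier probe set, by substrate class, on the A chip (left) and the B chip (right); filled points were called by limma. The grey band holds the central 95% of all tested probe sets of the chip, and 6 A chip members and 1 B chip member lie outside it.

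Under the filter lay 86 members on the A chip and 23 on the B chip, and 72 of the 253 genes had no tested probe set. These include glutamate carriers of the plasma membrane, since all 8 probe sets of Slc1a1, Slc1a2, Slc1a3 and Slc1a6 lay under it. They also include 6 of the 8 monoamine carrier probe sets of the A chip. The plot of level against difference shows the untested members at the left of each panel.

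**Figure D2:**
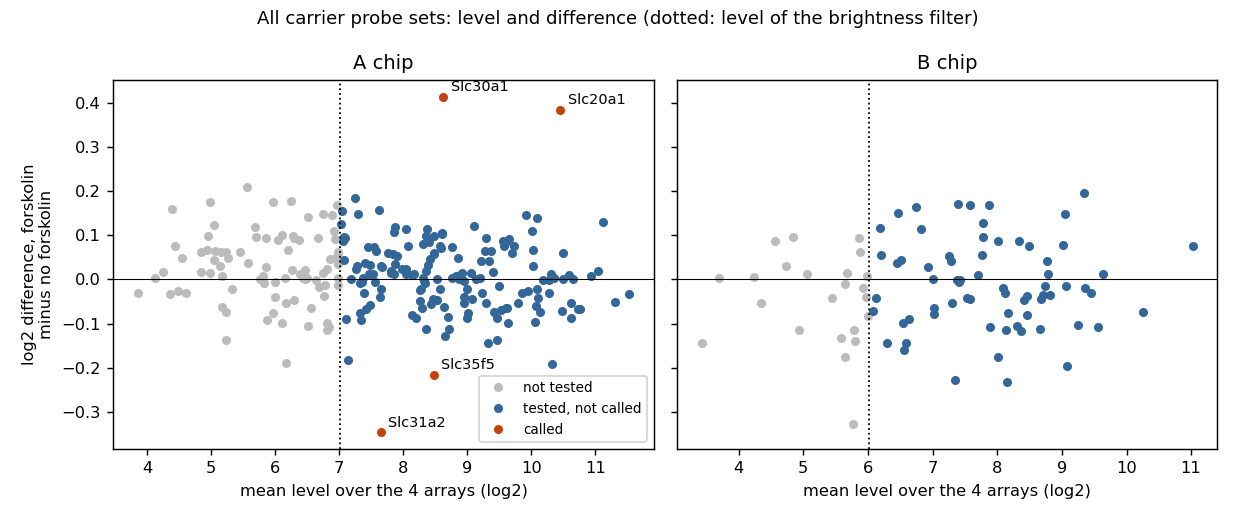
Each point is 1 solute carrier probe set, with its mean level over the 4 arrays (log2, x axis) and its log2 difference, forskolin minus no forskolin (y axis), on the A chip (left) and B chip (right). Called members are Slc30a1 and Slc20a1 above 0 and Slc35f5 and Slc31a2 below it, and points left of the dotted line were not tested.

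The ion and metal carriers form the largest class, with 76 probe sets on the A chip, of which 48 were tested, and 27 on the B chip, of which 19 were tested. On the A chip 2 were called higher, 1 lower and 45 not called. That is 6.25% called, beside 3.3% of all tested probe sets (2.03% higher and 1.26% lower). None was called on the B chip. Slc20a1 encodes PiT-1, a sodium-dependent phosphate importer of the plasma membrane. Its probe set read 10.23 and 10.29 without forskolin and 10.61 and 10.68 with it (log2). The lowest forskolin array lay above the highest array without it. The mean went from 10.26 ± 0.04 to 10.65 ± 0.05 (SD, n = 2), a 1.31-fold rise (0.39 ± 0.04 log2, SE, limma adjusted p = 0.000953). Slc20a2, which encodes the other phosphate importer of the family, had 2 tested probe sets with differences of 0.08 and 0.02, neither called.

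Slc30a1 encodes ZnT1, the exporter that carries zinc out of the cell. It read 8.40 and 8.44 without forskolin and 8.79 and 8.88 with it (log2), again with no overlap between the groups. The mean went from 8.42 ± 0.03 to 8.83 ± 0.06 (SD, n = 2), a 1.33-fold rise (0.41 ± 0.05 log2, SE, limma adjusted p = 0.00137). The rises of Slc20a1 and Slc30a1 were called with each array left out in turn. The other 6 tested members of the Slc30 family on the A chip, which mostly move zinc into organelles and vesicles, measured -0.07 to 0.03 and were not called. Slc30a3, the synaptic vesicle zinc transporter, was among them at -0.03, with 11.52 and 11.57 without forskolin and 11.46 and 11.56 with it. These arrays overlap.

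The zinc importers of the Slc39 family had 7 tested probe sets on each chip and no call. Slc39a14 encodes ZIP14, which brings zinc, iron and manganese into the cell, and it had the smallest p among them. Its A chip probe set read 9.845 and 9.848 without forskolin and 9.987 and 9.999 with it (log2), with no overlap. The difference was 0.15 ± 0.04 (log2, SE, limma adjusted p = 0.0782). Quantile normalization gave Slc39a14 an adjusted p of 0.0481 and median centring 0.0414, both past the threshold, and over all alternatives it ran from 0.0414 to 0.204. Its B chip probe set measured 0.04. The other 6 on the A chip lay between -0.07 and 0.03, with Slc39a1 (ZIP1) at -0.04 and a 95% interval of -0.16 to 0.08.

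Slc31a2 encodes CTR2, a copper transporter of endosomes and lysosomes. On the A chip it read 7.87 and 7.77 without forskolin and 7.52 and 7.43 with it (log2), and the groups do not overlap. The mean went from 7.82 ± 0.07 to 7.48 ± 0.06 (SD, n = 2), a 1.27-fold fall (-0.35 ± 0.06 log2, SE, limma adjusted p = 0.0115). A different probe set of Slc31a2 on the B chip read 8.25 and 8.29 without forskolin and 8.10 and 7.98 with it, also without overlap. Its difference was -0.23 ± 0.08 (log2, SE, unadjusted p = 0.0271, limma adjusted p = 0.9749), so it was not called. Without forskolin replicate 2 the A chip call of Slc31a2 was lost (adjusted p = 0.0603), and with a filter at the 50th percentile it was not tested. Slc31a1, the copper importer of the plasma membrane, named after its values were seen, had 3 tested probe sets on the A chip with differences of -0.05 to 0.01 and no call.

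**Figure D3:**
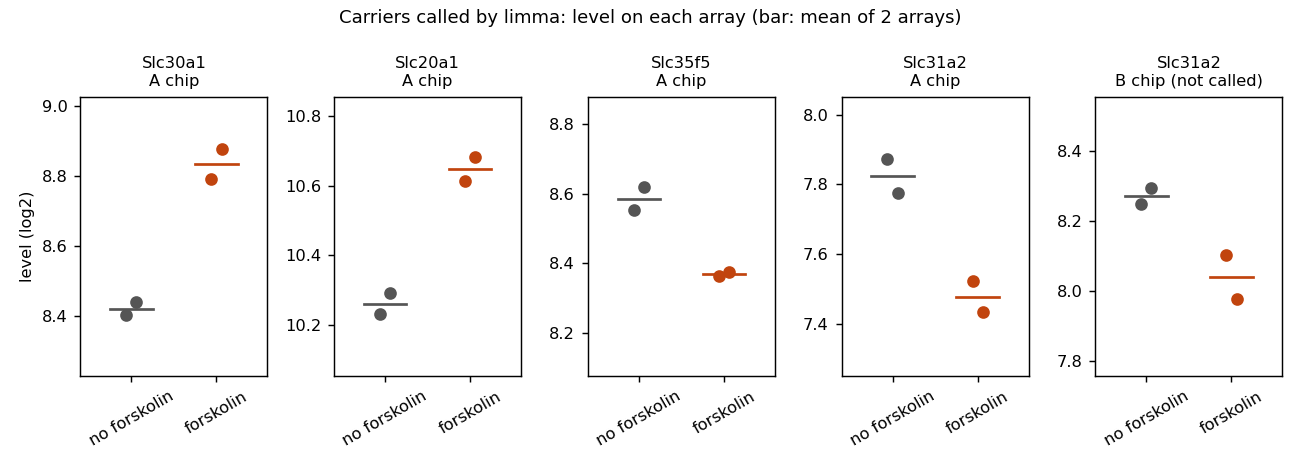
Level (log2) on each array for the called carriers and for the B chip probe set of Slc31a2, which was not called; points are arrays, bars are means of 2 arrays, and every panel spans the same range of levels. In every panel the forskolin arrays and the arrays without forskolin do not overlap.

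Promoters of the called genes are shown because the treatment raises cyclic AMP and the called ion carriers include zinc and copper transporters. Of the called genes, Slc30a1, Slc31a2 and Slc35f5 matched the promoter table by symbol, and over all members 208 of 253 genes matched. The sequences are the 250 bases before the annotated start from RefSeq (build GRCr8), all on the + strand, at chr13:106021769-106022018, chr5:80753368-80753617 and chr13:39544946-39545195. Capitals mark matches to the motifs searched, 5′ to 3′.
Slc30a1: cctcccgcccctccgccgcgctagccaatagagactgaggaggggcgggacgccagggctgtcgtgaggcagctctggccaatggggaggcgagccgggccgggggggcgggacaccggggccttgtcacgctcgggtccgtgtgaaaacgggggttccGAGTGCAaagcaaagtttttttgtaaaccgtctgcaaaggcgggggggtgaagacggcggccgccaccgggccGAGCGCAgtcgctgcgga
Slc31a2: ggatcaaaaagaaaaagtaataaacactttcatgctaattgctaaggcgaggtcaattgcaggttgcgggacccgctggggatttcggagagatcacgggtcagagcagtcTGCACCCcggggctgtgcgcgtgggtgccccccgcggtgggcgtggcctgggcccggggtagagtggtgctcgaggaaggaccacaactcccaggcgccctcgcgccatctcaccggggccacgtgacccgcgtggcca
Slc35f5: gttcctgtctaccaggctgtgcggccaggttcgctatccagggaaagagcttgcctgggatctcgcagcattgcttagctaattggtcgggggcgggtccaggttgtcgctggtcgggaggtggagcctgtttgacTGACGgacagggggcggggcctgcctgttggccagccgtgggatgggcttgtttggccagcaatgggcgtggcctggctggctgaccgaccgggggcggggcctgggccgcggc

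Motifs were searched on both strands over the whole promoter window, 250 bases before to 50 after the start. The full cyclic AMP response element, TGACGTCA, was in none of these 3 promoters. It was found in 1.83% of all 33469 promoters and in 4 of 222 member promoters (1.80%), those of Slc18a2, Slc38a6, Slc45a1 and Slc46a1, none of which was called. Its short core TGACG, which the full site contains, was in 21.2% of all promoters and 25.2% of member promoters, and it is the capitalised match 114 bases before the start of Slc35f5. The core of the metal response element, TGCACNC or TGCGCNC, binds the zinc sensor MTF1 and was added after the calls were seen. It occurred in 24.2% of all promoters and 33.3% of member promoters. In Slc30a1 it matched 2 times on the reverse strand, 91 and 18 bases before the start, and in Slc31a2 1 time on the forward strand, 139 bases before. A match is a description of these letters, not a bound site.

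The remaining ion carriers of the panel were not called. Slc12a2, the sodium-potassium-chloride cotransporter NKCC1, read 10.45 and 10.47 without forskolin and 10.51 and 10.54 with it (log2), with a difference of 0.06 and a 95% interval of -0.02 to 0.14. Slc4a2, the chloride-bicarbonate exchanger AE2, measured 0.09 (limma adjusted p = 0.281). All 5 tested probe sets of the Slc4 bicarbonate carriers on the A chip lay above 0, the highest at 0.12, and none was called. Of all 11106 tested on the chip, 5001 lay above 0. On the B chip Slc4a11 measured -0.03. Slc8a1, a sodium-calcium exchanger, had differences of 0.02 and 0.02 in its 2 tested probe sets. The differences of the ion carriers that were not called ran from -0.11 to 0.15 on the A chip and from -0.23 to 0.16 on the B chip.

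Amino acid carriers had 53 probe sets on the A chip, 33 of them tested, and 20 on the B chip, 18 of them tested. Limma called none on either chip. Unadjusted p-values under 0.05 were found for 6 with higher and 1 with lower levels on the A chip and for 1 with lower levels on the B chip. Among all tested probe sets, 7.1% were higher and 10.3% lower at that cutoff on the A chip, and 1.64% and 3.33% on the B chip. Their median difference was 0.04 on the A chip and 0.01 on the B chip (log2). Groups did not overlap in 19 of the 33 on the A chip, with forskolin higher in 13 and lower in 6. That is 57.6%, beside 48.5% of all tested probe sets (2270 higher and 3113 lower). On the B chip it was 8 of 18, with 2 higher and 6 lower, beside 32.7%. A positive median of this class was also found under quantile normalization (0.03 on each chip) and median centring (0.04 and 0.03). The medians of all tested probe sets were -0.008 and 0.0004 under quantile normalization and -0.012 and -0.0045 with median centring, on the A chip and B chip.

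The heteromeric carriers pair the heavy chain encoded by Slc3a2 (4F2hc) with a light chain of the Slc7 family. Slc3a2 read 11.06 and 11.04 without forskolin and 11.17 and 11.20 with it (log2). Forskolin arrays lay above control arrays, and the difference was 0.13 ± 0.03 (SE, limma adjusted p = 0.0833). Quantile normalization gave Slc3a2 an adjusted p of 0.0266 and median centring 0.0403, both past the threshold, and over all alternatives it ran from 0.0266 to 0.273. Slc7a5, the light chain of the large neutral amino acid carrier LAT1, read 10.02 and 10.03 without forskolin and 10.10 and 10.22 with it. Its groups did not overlap either, and it measured 0.14 ± 0.05 (log2, SE, limma adjusted p = 0.177). Leaving out forskolin replicate 2 lowered the Slc7a5 difference to 0.08, and leaving out forskolin replicate 1 gave 0.20. Slc7a6, a light chain that exchanges cationic for neutral amino acids, went the other way at -0.13 (limma adjusted p = 0.194). Slc7a11, the cystine-glutamate exchanger light chain, was measured on the B chip at 0.12, with a 95% interval of -0.13 to 0.36, and its arrays overlapped.

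Slc7a1, the cationic amino acid carrier CAT1, had 2 tested probe sets with differences of 0.11 and 0.04, both without overlap between groups and neither called, and 1 under the filter. The first of them read 9.92 and 9.99 without forskolin and 10.06 and 10.07 with it (log2). Slc38a1 and Slc38a2 encode sodium-coupled neutral amino acid carriers. The 3 tested probe sets of Slc38a1 measured 0.03 to 0.12, while Slc38a2 read 11.01 and 11.05 without forskolin and 11.03 and 11.07 with it and measured 0.02 with an interval of -0.06 to 0.10. Slc38a2 arrays of the groups overlapped. Slc1a5, the neutral amino acid exchanger ASCT2, measured 0.04 (-0.05 to 0.14). The promoter of Slc38a1 was 1 of 2 member promoters, with that of Slc1a4, that held the amino acid response element core TTGCATCA, which 0.795% of all promoters held.

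Slc16a10, the aromatic amino acid carrier TAT1, had the largest difference of the class on the A chip at 0.15 ± 0.05 (log2, SE, limma adjusted p = 0.147). It read 6.97 and 6.96 without forskolin and 7.13 and 7.11 with it, so its control arrays lay below the level of the filter. The taurine carrier gene Slc6a6 had 2 tested probe sets at 0.02 and 0.12. Of the glutamate carriers, the plasma membrane genes Slc1a1 (EAAT3) and Slc1a3 (EAAT1) had 5 probe sets under the filter, with levels of 5.98 to 6.89 (log2) over all arrays and differences of -0.10 to 0.10.

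**Figure D4:**
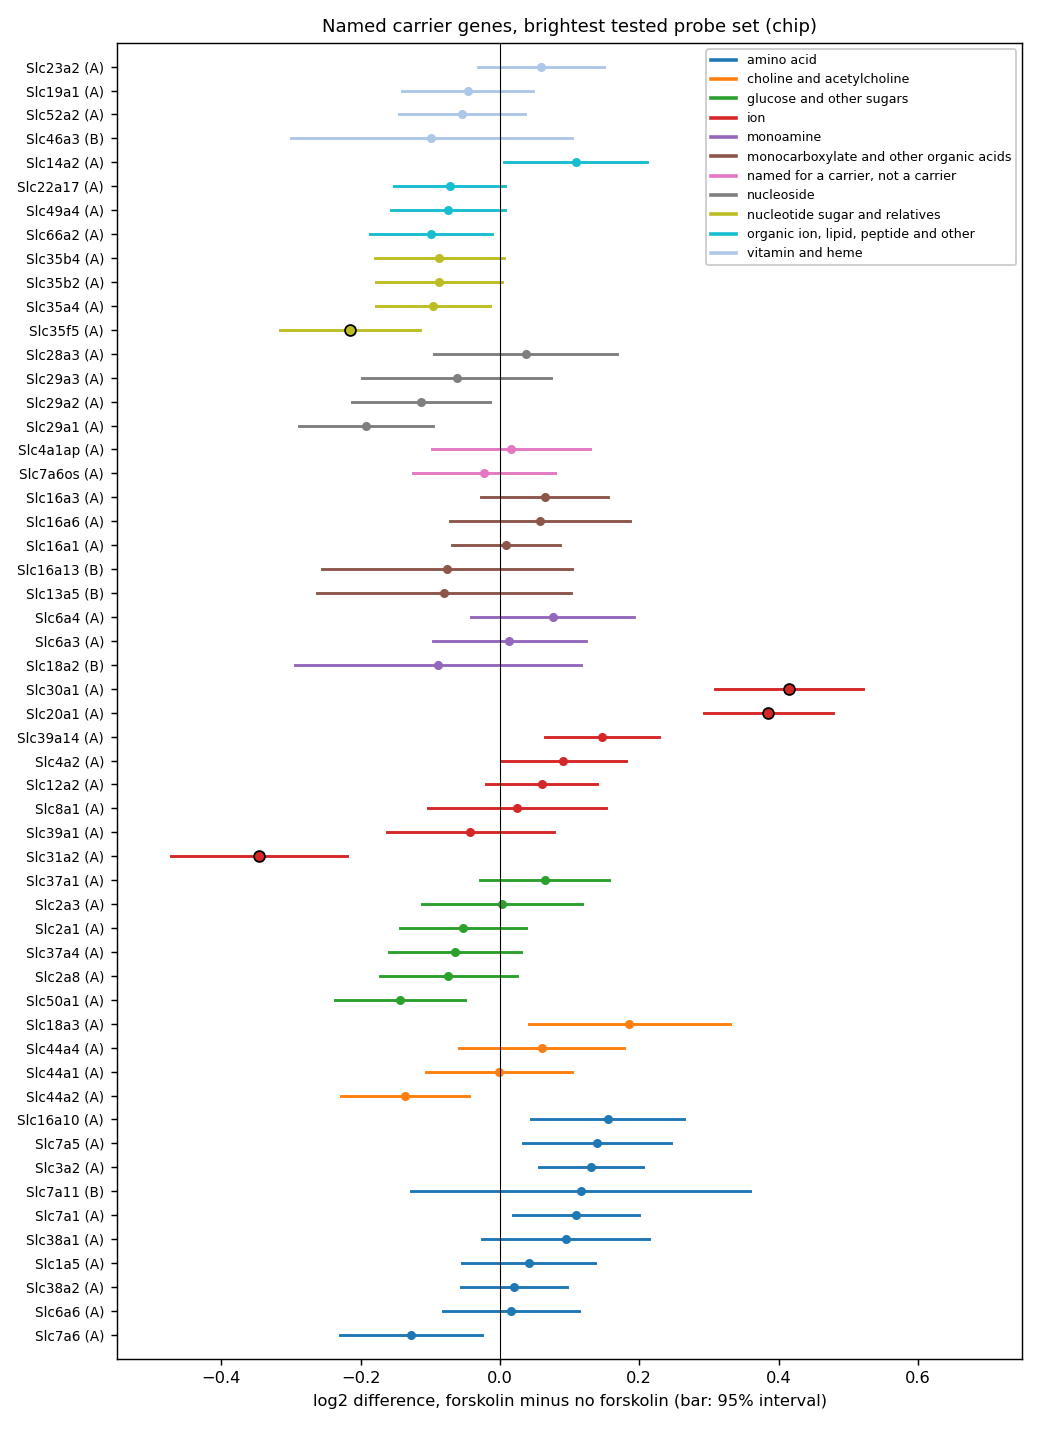
Log2 difference (forskolin minus no forskolin) of the named carrier genes that were tested, each through its brightest tested probe set, with the chip in brackets; bars are 95% intervals from limma and colours are substrate classes. Black rings mark the called genes: the intervals of Slc20a1 and Slc30a1 begin at 0.29 and 0.31, and those of Slc31a2 and Slc35f5 end at -0.22 and -0.12.

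Glucose and sugar carriers had 17 probe sets on the A chip, 12 tested, and 6 on the B chip, 3 tested. None was called by limma, and the only unadjusted p under 0.05 belonged to Slc50a1, with lower levels on the A chip. There 10.3% of all tested probe sets were lower at that cutoff. Slc2a1 encodes GLUT1, the widely used glucose carrier, and read 9.84 and 9.81 without forskolin and 9.74 and 9.80 with it (log2). The groups did not overlap, by a narrow margin, and the difference was -0.05 ± 0.04 (SE, 95% interval -0.14 to 0.04, limma adjusted p = 0.53). Slc2a3, the neuronal glucose carrier GLUT3, had 2 tested probe sets at 0.00 and -0.02, with overlapping arrays in both. Slc50a1, the mammalian SWEET sugar carrier, read 9.38 and 9.40 without forskolin and 9.28 and 9.22 with it. Its difference was -0.14 ± 0.04 (log2, SE, limma adjusted p = 0.121) and its groups did not overlap. The intracellular carriers Slc2a8, Slc37a1 and Slc37a4, the last of which brings glucose 6-phosphate into the endoplasmic reticulum, measured -0.07, 0.06 and -0.06.

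Monoamine carriers, the class tied to the catecholamine cells that PC12 models, were mostly too dim to test. Slc18a1 encodes VMAT1, the vesicular monoamine carrier of chromaffin granules, and its probe set read 6.85 and 6.94 without forskolin and 6.75 and 6.82 with it (log2). Slc6a2 encodes the noradrenaline transporter and read 6.90 and 6.83 without forskolin and 6.78 and 6.72 with it. Both lay under the filter level of 7.02 on all 4 arrays. In each the forskolin arrays were below the control arrays, by 0.11 and 0.11 on the log2 scale, with no test. Slc18a2, the neuronal form VMAT2, had 2 untested probe sets on the A chip with differences of 0.14 and 0.15. Its B chip probe set was tested and read 6.72 and 6.64 without forskolin and 6.53 and 6.65 with it, a difference of -0.09 ± 0.09 (SE, limma adjusted p = 1) with overlapping arrays. The dopamine transporter gene Slc6a3 and the serotonin transporter gene Slc6a4 each had 1 tested probe set on the A chip. They measured 0.01 (-0.10 to 0.12) and 0.08 (-0.04 to 0.19). None of the 3 tested probe sets of the class was called by limma, and none had an unadjusted p under 0.05.

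Choline and acetylcholine carriers had 7 probe sets, all on the A chip, 6 of them tested and none called by limma. Unadjusted p-values under 0.05 belonged to Slc18a3 (higher) and Slc44a2 (lower). At that cutoff 7.1% of all tested probe sets on the chip were higher and 10.3% lower. Slc18a3, the vesicular acetylcholine transporter, read 7.23 and 7.07 without forskolin and 7.30 and 7.37 with it (log2). The groups did not overlap and the difference was 0.19 ± 0.06 (SE, limma adjusted p = 0.182). Without no forskolin replicate 1 the difference of Slc18a3 was 0.26 (adjusted p = 0.0302), and without no forskolin replicate 2 it was 0.11 (0.588). Slc44a2, a choline transporter-like protein, read 9.56 and 9.51 without forskolin and 9.38 and 9.42 with it and measured -0.14 ± 0.04 (SE, limma adjusted p = 0.131). The 3 tested probe sets of Slc44a1 lay between 0.00 and 0.09.

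Nucleoside carriers had 8 probe sets on the A chip, 6 of them tested and none called by limma. Unadjusted p-values under 0.05 belonged to Slc29a1 and 1 probe set of Slc29a2, both with lower levels. Across all tested probe sets on the chip, 7.1% were higher and 10.3% lower at that cutoff. Slc29a1 encodes the equilibrative nucleoside transporter ENT1, which also carries adenosine. It read 10.37 and 10.47 without forskolin and 10.22 and 10.24 with it (log2), with forskolin arrays below control arrays. The difference was -0.19 ± 0.04 (SE, 95% interval -0.29 to -0.10), and limma's adjusted p of 0.0516 missed the threshold. The same probe set was called lower under quantile normalization (0.0209), with median centring (0.00961), with a stricter brightness filter (0.0443) and without no forskolin replicate 1 (0.00755). It was not called without forskolin replicate 1 (0.147), forskolin replicate 2 (0.122) or no forskolin replicate 2 (0.207, with a difference of -0.14), nor with no filter (0.0752) or eBayes without a trend (0.0874). Slc29a2 (ENT2) measured -0.11 and -0.03, and Slc29a3 (ENT3) -0.06 and -0.08. All 5 tested Slc29 probe sets lay below 0, as did 6105 of all 11106 tested on the chip. In 4 of the 5 the groups did not overlap, each with forskolin lower, beside 48.5% of all (2270 higher and 3113 lower). Without no forskolin replicate 2, 1 probe set of Slc29a3 measured 0.010. The concentrative carrier Slc28a3 measured 0.04.

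Carriers of nucleotide sugars and their Slc35 relatives had 16 probe sets on the A chip, 15 tested, and 13 on the B chip, 12 tested. On the A chip limma called 1 of the 15 lower, or 6.67%, beside 3.3% of all tested probe sets (2.03% higher and 1.26% lower). None was called on the B chip, beside 0.159% of all. The called one was Slc35f5, a relative whose substrate is not settled. It read 8.55 and 8.62 without forskolin and 8.36 and 8.38 with it (log2), and its arrays did not overlap. The mean went from 8.59 ± 0.05 to 8.37 ± 0.01 (SD, n = 2), a 1.16-fold fall (-0.22 ± 0.04 log2, SE, limma adjusted p = 0.0371). This call was lost with no brightness filter (adjusted p = 0.0599) and without forskolin replicate 1 (0.115), forskolin replicate 2 (0.105) or no forskolin replicate 2 (0.15). The other 14 on the A chip lay between -0.10 and 0.08. Slc35a4, Slc35b2 (which brings the sulfate donor PAPS into the Golgi) and Slc35b4 measured -0.10, -0.09 and -0.09, each without overlap. In 11 of the 15 the groups did not overlap, with forskolin higher in 2 and lower in 9. Of all 11106 tested on the chip, 48.5% did not overlap (2270 higher and 3113 lower). The median of the class was -0.04 on the A chip, beside -0.008 for all tested probe sets. With median centring it was -0.045 there, beside -0.012 for all, and under quantile normalization -0.040, beside -0.008. On the B chip it was -0.03, beside -0.03 for all tested probe sets. With median centring the class median there was -0.013, beside -0.0045 for all, and under quantile normalization -0.0094, beside 0.0004.

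Among carriers of monocarboxylates and other organic acids, 5 of 10 probe sets were tested on the A chip and 4 of 6 on the B chip, and limma called none. An unadjusted p under 0.05 belonged to 1 probe set, of Slc16a6, with lower levels on the A chip. There 10.3% of all tested probe sets were lower at that cutoff. Slc16a1 (MCT1), which moves lactate and pyruvate, read 10.92 and 10.95 without forskolin and 10.92 and 10.97 with it (log2) and measured 0.01 with an interval of -0.07 to 0.09. Slc16a3 (MCT4), the lactate exporter of glycolytic cells, measured 0.06. Slc16a6 had 2 tested probe sets that went opposite ways. One read 7.19 and 7.26 without forskolin and 7.10 and 6.98 with it, a difference of -0.18 without overlap. The other read 7.81 and 7.80 without forskolin and 7.79 and 7.94 with it, a difference of 0.06 with overlap. On the B chip Slc13a5, a citrate importer, measured -0.08, and the 2 probe sets of Slc16a13 -0.08 and 0.09.

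Vitamin and heme carriers had 8 of 10 probe sets tested on the A chip and 2 of 3 on the B chip, with no call by limma and no unadjusted p under 0.05. Slc23a2, which takes up vitamin C, measured 0.06 and 0.10. The folate carrier Slc19a1 measured -0.05, the riboflavin carrier Slc52a2 -0.05, and Slc46a3, on the B chip, -0.10. Carriers of organic ions, lipids, peptides and other solutes had 25 of 41 probe sets tested on the A chip and 9 of 15 on the B chip, and limma called none. Unadjusted p-values under 0.05 belonged to Slc66a2 (lower) and to 2 probe sets of Slc14a2 (higher), all on the A chip. At that cutoff 7.1% of all tested probe sets there were higher and 10.3% lower. Slc14a2 encodes a urea transporter and these probe sets stood at 0.16 and 0.11. Its remaining tested probe set measured 0.10. Of its 5 probe sets 3 were tested, the dimmest of them at a mean level of 7.07 (log2), near the filter. Slc66a2, a PQ-loop protein, measured -0.10, Slc49a4 -0.07 and Slc22a17 -0.07. The rule on symbols also takes in Slc4a1ap and Slc7a6os, which are named for a carrier but are not carriers, and they measured 0.02 and -0.02.

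Of 38 member genes with several tested probe sets, 20 had all differences on 1 side of 0 and 18 on both. The largest spread within a gene was the 0.24 of Slc16a6. Only 1 member probe set is on both chips, that of Slc35c1, a GDP-fucose carrier. It measured 0.08 on the A chip, without overlap, and -0.10 on the B chip, with overlap, and was called on neither.

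Lists of the pumps that set the gradients used by solute carriers gave 1 call. None of 8 tested genes of the sodium-potassium ATPase and its FXYD subunits was called by limma, and none of their probe sets had an unadjusted p under 0.05. Of 22 tested genes of the V-ATPase, the proton pump that drives vesicular loading, Atp6v0e2 fell by 0.28 on the log2 scale (limma adjusted p = 0.00979) and none rose. Of 12 tested genes of proteins that regulate solute carriers, Atf4, a transcription factor of the amino acid response, rose by 0.22 (log2, adjusted p = 0.0164). Txnip, whose product restrains the glucose carrier GLUT1, fell by 1.51 (adjusted p = 1.07e-07), and the kinase gene Sgk1 fell by 0.48 (adjusted p = 0.000751). The other 9 were not called. Among all genes, 1.44% were called higher and 0.945% lower. These lists were chosen with earlier results of these data known.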

How the data were processed

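RNA of PC12 cells was measured on 8 arrays of 2 chips, 2 per treatment and chip. The deposited values are the authors' processed log2 levels, 1 per probe set and array. Their background correction, summary and normalization are not stated in the labels or headers used here. That the base is 2 was inferred from the range: read as natural logarithms, 3063 A chip values would exceed a 16-bit scanner, as log2 values 0 would. Array medians within a chip differed by at most 0.02, so the authors' scaling was kept.

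Gene symbols came from GEO's platform annotation and were checked through the Entrez gene number against RefSeq (GRCr8). All 339 members matched and no member symbol changed. Of the probe sets, 12783 on the A chip carried 1 symbol, 312 several and 2771 none (B chip 7564, 100 and 7612).

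All probe sets at or above the 30th percentile of each chip entered 1 fit in limma 3.58.1, run in R 4.3.3 (lmFit, eBayes with a trend, two-sided, Benjamini-Hochberg over the chip). That is 11106 and 10693 probe sets. The fit was checked on simulated data. Alternatives changed the normalization, filter, trend, replicate block and arrays used. The number of arrays limits precision.

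Members, substrate classes and lists were chosen with earlier results of these data known. Slc6a20a, Slc6a20b, Slc4a1ap and Slc7a6os were placed in classes after the files were read. Named genes are all called members, the 4 genes of each class with the smallest p, and a panel of 28 known carriers, of which 27 are on the chips.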

Additional observations from a re-analysis of the deposited data

How the results depend on the processing

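Of the 11 alternatives tried per chip, none gave a B chip member call. On the A chip quantile normalization called 7 members (4 higher, 3 lower) and median centring also 7 (4 and 3). Both added Slc3a2, Slc39a14 and Slc29a1 to the 4 calls. With no filter 1 member was called lower. The stricter filter at the 50th percentile kept 4 calls, with Slc29a1 in place of Slc31a2, which was too dim to be tested there. Without each array in turn the A chip gave 2 to 6 member calls, 2 to 3 higher and 0 to 3 lower; the count was 2 without forskolin replicate 2, which ended both falls. The replicate numbers are shared between treatments, but nothing says that they pair samples. With the replicate number as a block the A chip gave 2 higher and 1 lower member calls, the lost one being Slc35f5 (adjusted p = 0.102), and the B chip 0. Slc29a1 was not called there either (0.095); deviations of same-numbered arrays from their group means correlated at 0.0034 on the A chip and 0.20 on the B chip.

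Slc20a1 and Slc30a1 were called under all of these settings. Over the named genes, 458 values of members not called kept their side of 0 and of the threshold, 9 gained a call and 21 changed sign, all of them small. Slc2a3 measured -0.00065 with median centring, and under quantile normalization Slc44a1 measured 0.0071 and Slc6a3 -0.0031. Leaving out each array in turn, the ranges that cross 0 were -0.012 to 0.030 (Slc16a1), -0.015 to 0.13 (Slc16a6), -0.033 to 0.11 (Slc28a3), -0.13 to 0.010 (Slc29a3), -0.058 to 0.064 (Slc2a3), -0.12 to 0.036 (Slc39a1), -0.053 to 0.051 (Slc44a1), -0.032 to 0.063 (Slc4a1ap), -0.012 to 0.039 (Slc6a3), -0.016 to 0.047 (Slc6a6), -0.053 to 0.0082 (Slc7a6os) and -0.029 to 0.078 (Slc8a1). The cause of these changes was not tested. With 2 arrays per group and no detection calls, small changes and changes in dim carriers cannot be resolved.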

Other observations

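Among members under the brightness filter, which were not tested, the differences farthest from 0 were in Slc26a10 on the B chip and Slc4a1 on the A chip. Slc26a10, of an anion exchanger family, read 6.05 and 5.82 without forskolin and 5.73 and 5.49 with it (log2), a difference of -0.33. Slc4a1, the anion exchanger of red blood cells, read 5.51 and 5.40 without forskolin and 5.67 and 5.66 with it, a difference of 0.21. Its tested probe set measured 0.06. Slc28a2, the sodium-coupled nucleoside carrier CNT2, read 6.24 and 6.28 without forskolin and 6.09 and 6.06 with it, a difference of -0.19. In these untested probe sets the groups did not overlap. These members were chosen after their values were seen, for large differences, which makes a lack of overlap likely. Of all tested probe sets, 48.5% on the A chip and 32.7% on the B chip did not overlap.

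On the B chip, 3 tested members had the smallest p, again named after their values were seen. Besides Slc31a2 they were Slc38a9, a lysosomal amino acid sensor, at -0.23 ± 0.10 (log2, SE), and Slc66a1, a lysosomal exporter of cationic amino acids, at -0.20. None was called by limma (adjusted p = 0.9749, 0.977 and 0.977). Other tested probe sets of Slc66a1 measured 0.01 on the A chip and -0.03 on the B chip. Slc33a1, which brings acetyl-CoA into the endoplasmic reticulum, had the highest B chip difference at 0.20, with overlapping arrays, while its other tested probe sets measured -0.01 on the A chip and -0.0014 on the B chip.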
